A study of Mus musculus with 4 samples.

Results

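The creatine system of the infarcted mouse heart was described through 7 genes, listed by their role, with no rule on measured values: the creatine kinases Ckm, Ckmt2, Ckb and Ckmt1, the creatine transporter Slc6a8, and the synthesis enzymes Gatm and Gamt. They were 7 of the 20659 genes that the arrays name. The tested hearts came from VE-Cad-Cre-S1pr1 fl/fl mice (KO, replicates 3 and 4), in which a Cre recombinase under the VE-cadherin promoter is meant to delete the floxed sphingosine 1-phosphate receptor gene S1pr1 in endothelial cells. They were set against hearts of WT mice (replicates 1 and 3). All mice were male and all had had the left anterior descending coronary artery tied, with the heart taken on day 5; the strain, the age, and whether WT mice carried the Cre or the floxed allele are not given in the sources used here. Total RNA of each heart sample was put on a 1-colour Agilent array, 2 arrays a genotype, with no unoperated heart and no statement of the heart region or of whether each array was a separate animal. A p-value here therefore reflects the scatter of these 4 arrays alone, and that scatter may be technical. The arrays do not show in which cells S1pr1 was lost.

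Phosphocreatine is the short-term energy store of heart muscle. Mitochondrial creatine kinase, at the outer face of the inner membrane, uses newly made ATP to charge creatine, and the cytosolic enzyme at the myofibrils and pumps turns phosphocreatine back into ATP where it is spent. Cardiomyocytes take up most of their creatine from the blood through the transporter. Creatine itself is made in a pair of steps, from arginine and glycine by GATM and then with a methyl group by GAMT, largely in kidney and liver, so that both enzymes are textbook genes of other organs. Loss of creatine kinase activity is a long known feature of the failing heart.

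Levels are log2 processed signals minus the 75th percentile of the same array. Every difference between genotypes is given as KO minus WT on this log2 scale. Since probes bind with different strength, a level is comparable between arrays and not between genes. S1pr1 stood at -2.69 and -2.30 in KO replicates 3 and 4, against 0.43 and 0.95 in WT replicates 1 and 3, so the KO labels go with the lower S1pr1 signal. The difference was -3.19 (limma unadjusted p = 0.000714, adjusted p = 0.740), so the targeted gene itself had no adjusted p under 0.05. Where its probe lies relative to the deleted exons is not known here. WT replicate 1 stood apart from the other 3 arrays. Its share of probes well above background was 54.3%, against 69.4% to 73.4% on the others. The background-subtracted signals of its negative control spots had an SD of 6.79, against 1.17 to 1.68 on the others. All 12 of 12 cardiomyocyte markers had their lowest level on WT replicate 1. The mean level of those markers was 6.30 and 7.05 on the KO arrays and 2.71 and 6.55 on the WT arrays. KO replicate 4 departed from the others in another way, as 5 of 8 fibroblast markers had their lowest level on it. Among them Postn was at 2.48, against 5.89 to 6.13 on the other arrays, whereas the fibroblast marker Dcn was highest on KO replicate 4 (6.77). The arrays shared 1 slide, with KO at positions 2 and 1 and WT at positions 4 and 3, so position and genotype cannot be told apart. In bulk RNA, fewer cells of a type and less RNA per cell cannot be told apart.

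Upstream of their start sites the creatine kinase genes differ, and the sequences of Ckm, Ckmt2 and Ckb are shown. Whether these sequences have a part in the levels on the arrays was not tested. Each window is the 250 bases before the start, 5′ to 3′ on the gene's strand, from RefSeq on GRCm38.p6. Capitals mark the E-box CANNTG, bound by muscle bHLH factors, and the TATA-type motif TATANA, both searched on both strands. The windows are chr7:19410844-19411093 (plus strand) for Ckm, chr13:91876886-91877135 (minus strand) for Ckmt2 and chr12:111672339-111672588 (minus strand) for Ckb.

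Ckm: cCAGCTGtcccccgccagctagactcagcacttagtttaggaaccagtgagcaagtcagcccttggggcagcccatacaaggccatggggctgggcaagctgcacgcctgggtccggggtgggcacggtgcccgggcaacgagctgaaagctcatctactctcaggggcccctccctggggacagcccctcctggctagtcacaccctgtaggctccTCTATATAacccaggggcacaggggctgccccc

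Ckmt2: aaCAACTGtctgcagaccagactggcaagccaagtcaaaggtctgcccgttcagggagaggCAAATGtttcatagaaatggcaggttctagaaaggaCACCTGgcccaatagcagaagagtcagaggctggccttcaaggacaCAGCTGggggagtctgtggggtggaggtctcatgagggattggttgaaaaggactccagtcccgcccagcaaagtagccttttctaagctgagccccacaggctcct

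Ckb: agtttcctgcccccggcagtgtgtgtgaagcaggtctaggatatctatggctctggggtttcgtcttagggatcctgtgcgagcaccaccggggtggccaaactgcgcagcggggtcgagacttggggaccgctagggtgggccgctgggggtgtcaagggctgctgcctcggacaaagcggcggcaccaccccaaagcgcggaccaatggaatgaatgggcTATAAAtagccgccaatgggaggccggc

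The Ckm window held 1 E-box, starting 249 bases before the start site, and 2 overlapping TATA-type matches starting 33 and 31 bases before it. The Ckmt2 window held 4 E-boxes, 0 TATA-type matches and 1 GC box (GGGCGG). The Ckb window held 0 E-boxes and 1 TATA-type match 28 bases before the start, inside a match to the MEF2 site of muscle and nerve genes. Of 32851 windows of the same length, 66.2% held an E-box, 22.6% a TATA-type match, 32.7% a GC box and 2.92% a MEF2 match, so an E-box by itself is common. Of the 7 genes, 6 had a window in the RefSeq table, Slc6a8 being the exception. The first Ckmt1 window held a TATA-type match and the Gatm window 1 E-box, while the Gamt window held 3 GC boxes and neither of the other motifs.

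All 7 genes were well above background on all 4 arrays, and no spot of theirs was saturated. None differed between the genotypes in limma's test: 0 of 7 had an adjusted p under 0.05, in a comparison that called 0% of the 22924 features tested, and 0 of 7 had an unadjusted p under 0.05, against 2.76% of all features. Of the 7, 4 had the higher mean in KO hearts (Ckm, Ckmt2, Slc6a8 and Ckmt1) and 3 the lower mean (Gatm, Ckb and Gamt). Among all features, 54.8% had the higher mean in KO. The lower mean was found in 45.2%. The genotypes did not overlap for 2 of 7 genes, against 34.4% of all features. Both were cases of KO below WT (Gatm and Ckb), an order held by 16.1% of features, and KO lay above WT in 0 of 7, against 18.3%. The median difference of the 7 was 0.28, beside 0.07 for all features.

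**Figure D1:**
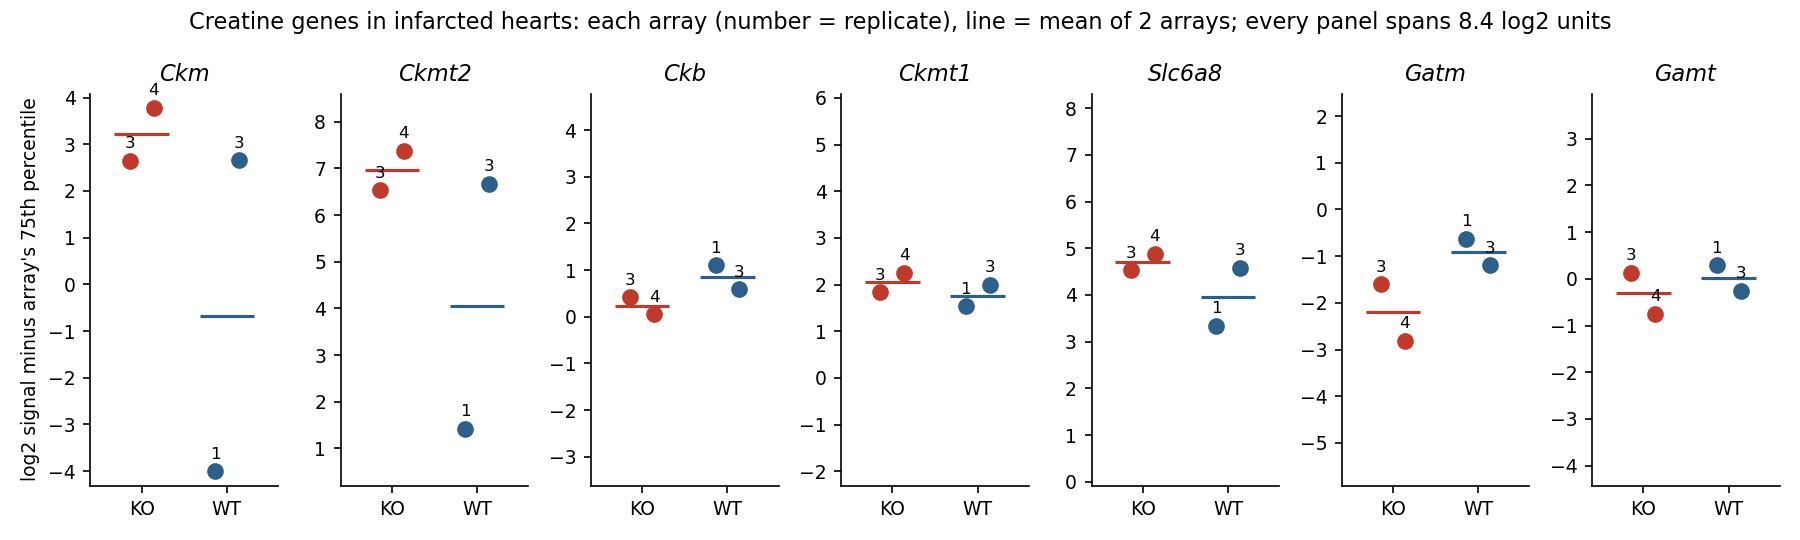
Level of each creatine gene (log2 processed signal minus the array's 75th percentile) on each array, KO in red on the left and WT in blue on the right of each panel, with the replicate number beside each point and a line at the mean of 2 arrays. Every panel spans the same log2 range, so that the drop of Ckm to -4.00 and of Ckmt2 to 1.43 on WT replicate 1 can be set beside the narrower spread of the other genes.

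Ckm, the cytosolic muscle creatine kinase, gave processed signals of 5916 and 8466 in KO replicates 3 and 4, against 69.4 and 5414 in WT replicates 1 and 3. Its levels were 2.65 and 3.78 in KO hearts, and -4.00 and 2.66 in WT hearts. KO replicate 3 and WT replicate 3 were almost equal, KO replicate 4 was the highest, and WT replicate 1 was far below all others, so the genotypes overlapped. The mean difference was 3.88 (SE 2.31, 95% interval -2.31 to 10.08, n = 2 arrays each, limma adjusted p = 0.740). Permuting the array labels exactly gave a two-sided p of 0.667, where 0.333 is the smallest possible. Without WT replicate 1 the difference was 0.55, and without WT replicate 3 it was 7.22, with a limma adjusted p of 0.132.

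The gap between the WT arrays was thus wider than the mean difference between genotypes. Ckm was 101.5-fold higher on WT replicate 3 than on WT replicate 1 (log2 6.66), a gap matched or exceeded by 18 of 22924 features (0.0785%), itself included. The KO arrays differed by 1.13. On WT replicate 1 the Ckm level of -4.00 lay close to the lowest level that still counted as well above background there (-4.39), and the scanner's own error was 18.9% of the signal, against 10% on the other arrays. The low value there was thus read from a dim spot, though a measured one. In the authors' deposited table, whose normalization between arrays is not described in the sources used here, Ckm stood at 12.47 and 13.40 in KO hearts and at 5.84 and 12.40 in WT hearts on a log2 scale.

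Ckmt2, the sarcomeric mitochondrial creatine kinase of striated muscle, followed the same order of arrays. Its processed signals were 87221 and 102843 in KO replicates 3 and 4, against 2987 and 86986 in WT replicates 1 and 3. Levels were 6.53 and 7.38 in KO hearts, and 1.43 and 6.67 in WT hearts. WT replicate 1 alone was low, and WT replicate 3 lay between both KO arrays. The difference was 2.91 (SE 1.82, 95% interval -1.99 to 7.80, limma adjusted p = 0.740), or 0.29 without WT replicate 1. The gap between the WT arrays was 37.9-fold, matched or exceeded by 0.353% of features. At 2987, the spot on WT replicate 1 was bright, so for Ckmt2 the low value did not come from a signal near background.

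Cardiomyocyte markers moved with both genes. All 12 of 12 had the higher mean in KO hearts, with a median difference of 2.15 that was 0.15 without WT replicate 1. Their summed linear level was 1179 and 1943 in KO hearts and 166.8 and 1363 in WT hearts. Myoglobin (Mb), the oxygen store of muscle, differed by 2.13, and the myosin light chain Myl2 by 2.21. The WT gap ran from 1.41 to 5.08 over the 12 markers, with a median of 3.84, so the gaps of Ckm (6.66) and Ckmt2 (5.24) were wider than that of any marker. Measured relative to the mean of the markers on each array, Ckm differed by 1.84 (SE 2.03, limma adjusted p = 0.591). Ckmt2 differed by 0.86 (SE 2.03, limma adjusted p = 0.722), while the median of all features became -1.98. WT replicate 1 remained the lowest array for both genes. Around its own mean, Ckm then stood at 0.73 and 1.11 in KO hearts, and at -2.33 and 0.50 in WT hearts. The part that cardiomyocyte content has in the 2 differences was not tested. Of 9 skeletal muscle markers, 5 were measured and Myh1, Myh2, Actn3 and Mylpf were not, with a summed level of 2.34 and 1.36 in KO hearts and 1.76 and 2.37 in WT hearts.

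**Figure D2:**
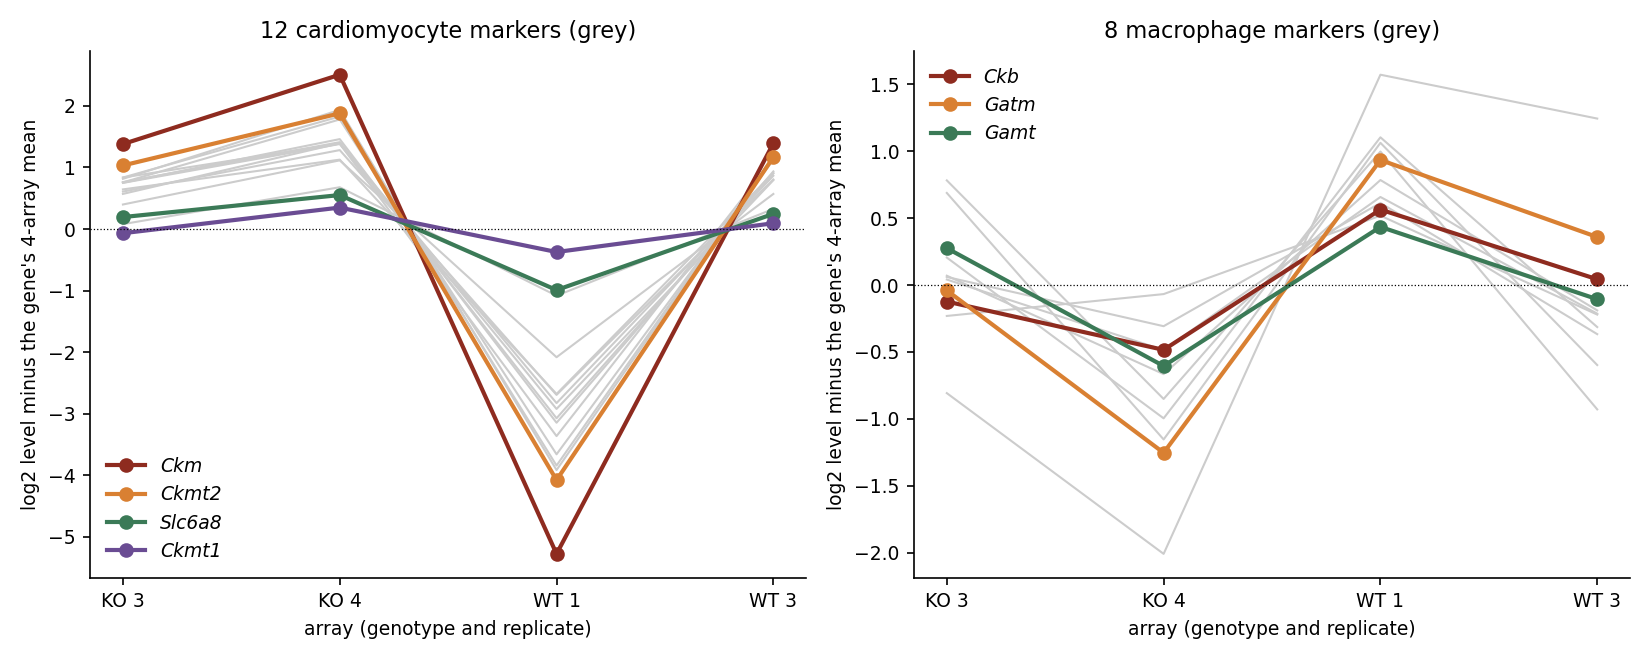
Level of each gene minus its own mean over 4 arrays (log2), for the arrays KO 3, KO 4, WT 1 and WT 3; the left panel sets Ckm, Ckmt2, Slc6a8 and Ckmt1 over 12 cardiomyocyte markers in grey, and the right panel Ckb, Gatm and Gamt over 8 macrophage markers in grey. Ckm and Ckmt2 go lower on WT 1 than any of the 12 grey lines, Slc6a8 and Ckmt1 stay nearer 0 there than all 12, and Gatm has its lowest point on KO 4.

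Ckb, the brain-type cytosolic creatine kinase that is also made outside muscle, ran the other way. Its levels were 0.42 and 0.06 in KO hearts, against 1.11 and 0.59 in WT hearts. The genotypes did not overlap, and WT replicate 1 was here the highest array. The difference was -0.61 (SE 0.37, 95% interval -1.60 to 0.39, limma adjusted p = 0.740), or -0.35 without WT replicate 1. The exact permutation p was 0.333, the smallest that 2 against 2 arrays allow. Another probe for Ckb kept both KO arrays below both WT arrays, with a smaller difference of -0.20: its levels were -0.55 and -0.59 in KO hearts and -0.23 and -0.49 in WT hearts.

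Ckmt1, the ubiquitous mitochondrial creatine kinase, varied least. Its levels were 1.84 and 2.25 in KO hearts, and 1.53 and 2.0 in WT hearts. The genotypes overlapped, and the difference was 0.28 (SE 0.37, limma adjusted p = 0.794, 95% interval -0.71 to 1.27). On a linear scale the interval runs from 0.610-fold to 2.42-fold, KO over WT.

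The balance between the muscle and non-muscle isoforms can be followed across arrays as the log2 ratio of the 2 probes, relative to its mean over the 4 arrays. For Ckm over Ckb it was 1.5 and 2.99 in KO hearts, and -5.84 and 1.35 in WT hearts. For Ckmt2 over Ckmt1 it was 1.1 and 1.53 in KO hearts, and -3.70 and 1.07 in WT hearts. Both ratios were higher on each KO array than on each WT array, an order that 18.3% of single features had. In both, KO replicate 3 exceeded WT replicate 3 by a small margin, KO replicate 4 was the highest array, and WT replicate 1 was far below the others. Within the cytosolic and mitochondrial muscle pair, Ckm over Ckmt2 was 0.35 and 0.63 in KO hearts, and -1.20 and 0.22 in WT hearts. Between the non-muscle pair, Ckb over Ckmt1 was -0.055 and -0.83 in KO hearts, and 0.94 and -0.051 in WT hearts. The exact permutation p was 0.333 for each of these ratios, the smallest that 2 against 2 arrays allow.

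Slc6a8, which carries creatine into the cell with sodium and chloride, had levels of 4.53 and 4.89 in KO hearts, and 3.34 and 4.58 in WT hearts. Again WT replicate 1 alone was low and the genotypes overlapped. The difference was 0.74 (SE 0.53, 95% interval -0.68 to 2.17, limma adjusted p = 0.740), or 0.13 without WT replicate 1. The WT gap of 1.24 was narrower than that of each of the 12 cardiomyocyte markers, and 19.5% of all features had one as wide. Relative to the marker mean its difference was -1.30, on a scale where the median of all features was -1.98 and only 1.7% were higher in KO.

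Gatm, which forms the creatine precursor guanidinoacetate, showed the lowest p of the 7. Processed signals were 311 and 88.1 in KO replicates 3 and 4, against 722 and 373 in WT replicates 1 and 3. Its levels were -1.60 and -2.81 in KO hearts, and -0.62 and -1.20 in WT hearts. Both KO arrays were below both WT arrays, KO replicate 4 by the wider margin. The difference was -1.29 (SE 0.55, 95% interval -2.76 to 0.17, unadjusted p = 0.0714, limma adjusted p = 0.740), or -1.01 without WT replicate 1 and -0.69 without KO replicate 4. Between the arrays numbered 3 it was -0.40.

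Gamt, which methylates guanidinoacetate to creatine, had levels of 0.13 and -0.75 in KO hearts, and 0.29 and -0.25 in WT hearts. The genotypes overlapped, with KO replicate 4 the lowest array as for Gatm. The difference was -0.33 (SE 0.46, limma adjusted p = 0.804, 95% interval -1.57 to 0.91), and it was 0.11 without KO replicate 4. Another Gamt probe gave -0.25.

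Macrophage markers, like Gatm, Gamt and Ckb, were highest on WT replicate 1 (8 of 8), and 5 of 8 were lowest on KO replicate 4. All 8 of the 8 measured had the lower mean in KO hearts, with a median difference of -0.45, which was 0.03 without WT replicate 1. Their summed level was 60.65 and 40.8 in KO hearts, and 97.99 and 47.25 in WT hearts. Fibroblast markers, also 8, summed to 565.4 and 254.4 in KO hearts, and to 493.3 and 546.4 in WT hearts. Smooth muscle and pericyte markers summed to 98.36 and 91 in KO hearts, and to 209.1 and 103.7 in WT hearts, which is the order of arrays of Gatm and Ckb. Singly these 8 markers were split, 4 with the higher and 4 with the lower mean in KO hearts, and a median difference of -0.12. Both KO arrays lay below both WT arrays for 2 of the 8, with Cnn1 at -2.41, against 16.1% of all features. They lay above both WT arrays for 2 others, with Rgs5 at 1.89, against 18.3% of all features. Erythroid markers, of which 3 were measured, summed to 12.74 and 12.21 in KO hearts, and to 51.67 and 16.53 in WT hearts, again in the order of Gatm and Ckb. All 3 had the lower mean in KO hearts, but Slc4a1 was highest on KO replicate 4 (-2.10) and lowest on KO replicate 3 (-3.29). Another sum in the order of Gatm and Ckb was that of 5 epithelial markers. It was 0.904 and 0.691 in KO hearts, and 1.74 and 1.13 in WT hearts. Taken singly, 2 of these 5 had the higher and 3 the lower mean in KO hearts, with Krt18 at -1.18 and Cldn7 at 0.49. The macrophage sum, in contrast, was higher on KO replicate 3 than on WT replicate 3. Other marker sums did not have the order of Gatm and Ckb. Endothelial markers summed to 87.68 and 71.94 in KO hearts, and to 58.2 and 70.84 in WT hearts. All 8 of these had the higher mean in KO hearts. Neutrophil markers summed to 54.51 and 65.7 in KO hearts, and to 65.27 and 50.07 in WT hearts. For neuronal and glial markers the sums were 2.85 and 4.52 in KO hearts, and 7.15 and 3.81 in WT hearts. The part of these cell types in the values of Gatm, Gamt and Ckb was not tested.

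**Figure D3:**
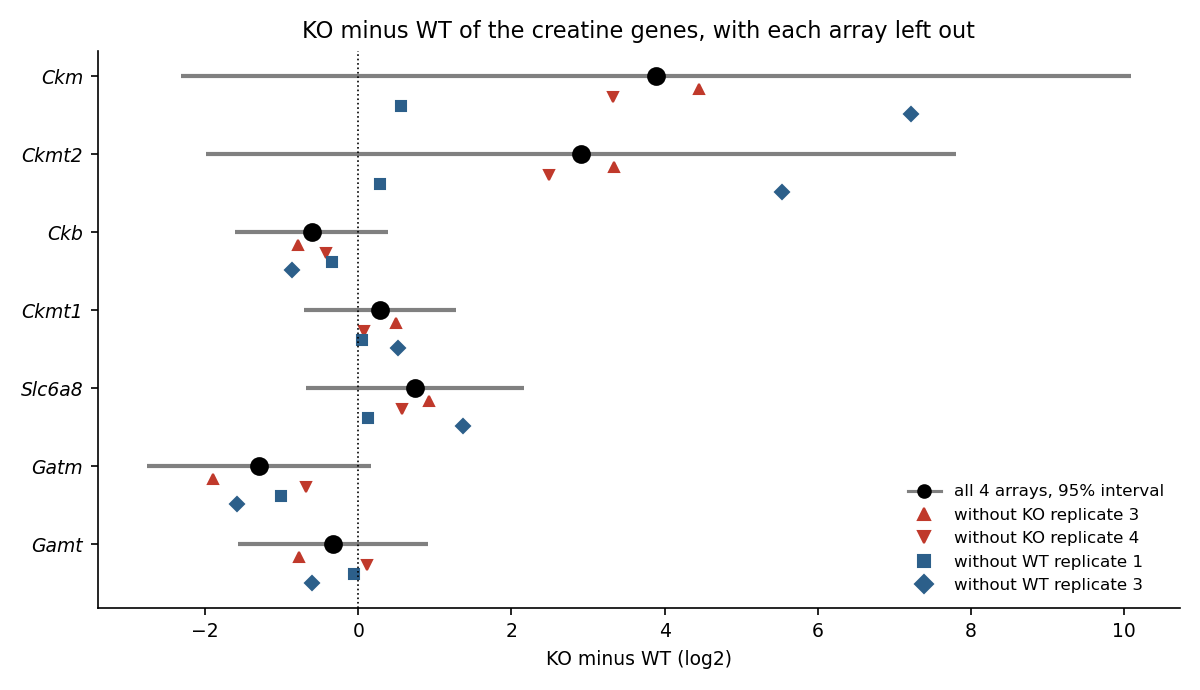
KO minus WT (log2) of each creatine gene with its 95% interval over all 4 arrays (black), and the value with each array left out (red triangles, a KO array; blue squares and diamonds, a WT array). Every interval crosses 0, and Ckm moves between 0.55 and 7.22 with the array left out, while Gatm stays between -1.90 and -0.69.

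The likeness of 2 genes over the 4 arrays was measured as the root mean square distance between their levels after each gene's own mean was removed. Within the group, the nearest pairs were Ckb with Gamt (0.231), Slc6a8 with Ckmt1 (0.359) and Ckb with Gatm (0.457). Ckm and Ckmt2 lay 0.707 apart, and nearer to each other than to any of the other 5. Among 12462 other named genes well above background on all arrays, the nearest to Ckm were Myh7b, Hrc, Stxbp4, Lrrc14b and Asb11, at distances of 0.127 to 0.386. Those nearest to Ckmt2 were Myh8, Ptgds, Sgca, Pln and Itgb1bp2, at 0.0822 to 0.144. The list for Gatm was Cep295nl, Hpgds, Endod1, Ly86 and Hhat, at 0.0460 to 0.0815. Slc6a8 was nearest to Mrps18a, Msra, Letm1, Foxred1 and Ccm2l, and Ckmt1 to Hsd17b4, Sft2d3, Btbd16, Gabarapl2 and Tomm40. Around Ckb stood Nsf, Gpc4, Adat2, Utp23 and Arf6, and around Gamt stood Zfp41, Scn2a, Hic1, Haao and Sec14l2. With 4 arrays such a distance is a description of them, and the lists of Gamt and Ckmt1 each shared 0 of 5 genes with those from the authors' deposited table.

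**Figure D4:**
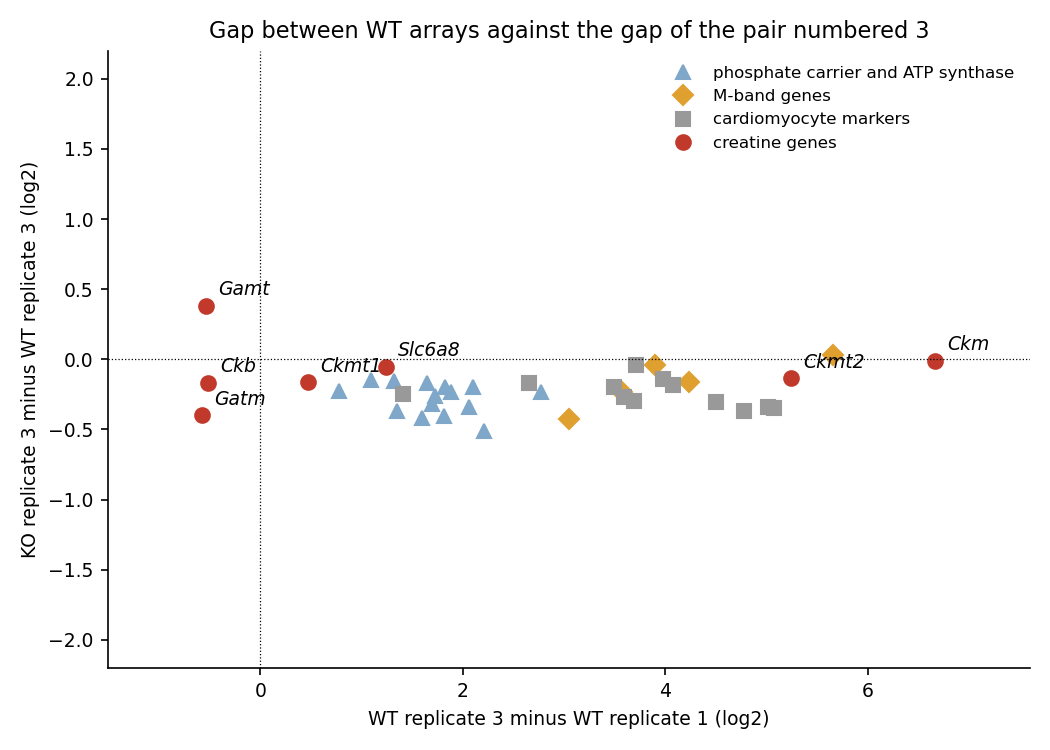
Gap between WT arrays (replicate 3 minus replicate 1, log2, horizontal) against the difference between the arrays numbered 3 (KO minus WT, log2, vertical), for the 7 creatine genes (red), M-band genes (orange), phosphate carrier and ATP synthase genes (light blue) and cardiomyocyte markers (grey). Ckm and Ckmt2 lie far to the right, with gaps of 6.66 and 5.24, and close to 0 on the vertical axis, at -0.011 and -0.14.

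The genes that work beside creatine kinase were set next to these values; 0 were called in any of the lists. M-band proteins, to which the muscle enzyme binds in the sarcomere, had the higher mean in KO hearts in 5 of 5 cases, with a median of 2.17. The myomesins Myom2 and Myom1, which cross-link thick filaments there, differed by 2.46 and 2.17. As for Ckm, their median without WT replicate 1 was small, at 0.22. The AMP-activated kinase, which senses the fall of ATP, had 6 of 7 subunits higher in mean, with a median of 0.44, or 0.19 without WT replicate 1. Its muscle-rich catalytic subunit Prkaa2 differed by 2.21, or by 0.22 without WT replicate 1.

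On the mitochondrial side, all 15 measured genes of the phosphate carrier and ATP synthase had the higher mean in KO hearts, and all 15 were lowest on WT replicate 1. Their median was 1.06, less than the 2.91 of Ckmt2, and 0.20 without that array. Atp5g1, a subunit of the membrane ring, differed by 1.58, or by 0.20 without WT replicate 1. The adenine nucleotide carriers and outer membrane porins, which pass ATP and phosphocreatine across the membranes near Ckmt2, were higher in mean in 6 of 6 cases, with a median of 0.61, and all 6 were lowest on WT replicate 1. Without that array the median was 0.16, and without KO replicate 4 it was 0.20. The heart and muscle carrier Slc25a4 differed by 1.29, or by 0.18 without WT replicate 1. Adenylate kinases and AMP deaminases, the other route by which phosphate bonds are moved, were split 4 and 4 with a median of 0.20, which was -0.0016 without WT replicate 1. The mitochondrial matrix enzyme Ak3 was higher on both KO arrays than on both WT arrays, by 0.66, or by 0.40 without WT replicate 1.

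Genes that supply creatine synthesis were also split. Of 14 measured genes for arginine and methyl groups, 7 had the higher and 7 the lower mean in KO hearts, with a median of -0.08 that turned to 0.15 without KO replicate 3. Ass1, which helps to make the arginine that GATM uses, had levels of -0.0025 and -1.60 in KO hearts, and 1.06 and 0.35 in WT hearts. It thus had the order of arrays of Gatm, with a difference of -1.5 (limma adjusted p = 0.740) that was -2.30 without KO replicate 3 and -0.70 without KO replicate 4. Odc1, which draws on arginine-derived ornithine for polyamines, differed by -0.75, with both KO arrays again below both WT arrays, and by -0.34 without WT replicate 1 and -1.16 without WT replicate 3. That order from the highest on WT replicate 1 over WT replicate 3 and KO replicate 3 to the lowest on KO replicate 4 was found in 10.6% of all features. Among 6 other carriers of creatine and related osmolytes, 5 had the higher mean, with a median of 0.31 that turned to -0.15 without WT replicate 1. The carnitine carrier Slc22a5 differed by 0.87, or by 0.39 without WT replicate 1. The taurine carrier Slc6a6, a relative of Slc6a8, had levels of 4.32 and 4.28 in KO hearts, and 4.37 and 5.08 in WT hearts. The genotypes were separated narrowly, and its difference of -0.42 became -0.77 without WT replicate 1 and -0.06 without WT replicate 3.

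**Figure D5:**
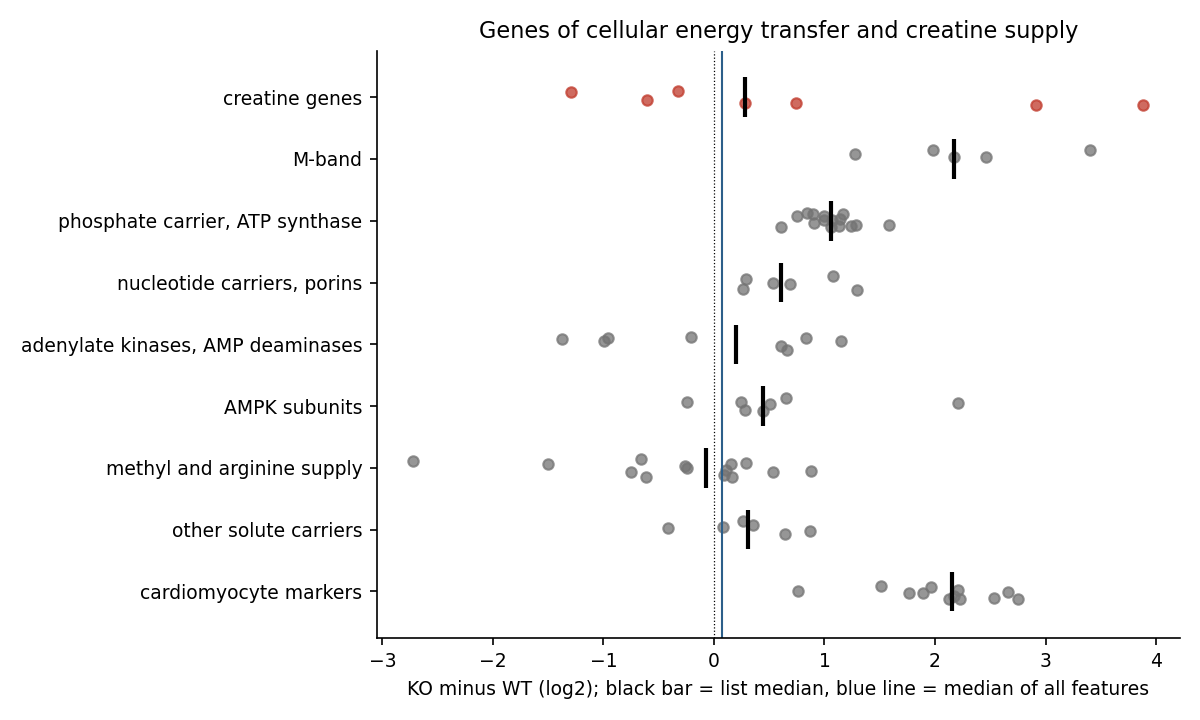
KO minus WT (log2) of each measured gene, in rows for the creatine genes (red), 7 lists of neighbouring genes and the 12 cardiomyocyte markers (grey); black bars are list medians and the blue line is the median of all features, 0.07. M-band genes and cardiomyocyte markers have medians of 2.17 and 2.15, and the creatine genes are spread over the widest range, from -1.29 to 3.88.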

How the data were processed

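RNA of 4 heart samples, 2 KO and 2 WT, was measured on 1-colour arrays. Per the labels' protocols, Trizol-extracted total RNA was labelled with Cy3. The file headers name Feature Extraction 11.0.1.1 and the submitters' processing notes Agilent Feature Extraction 9.1. Scanner intensity was taken as the processed signal, which had been background-subtracted per the file headers. The other values used were the deposited flags of each spot for background, saturation and outliers. The deposited value table holds log2 values and served as an alternative. Its columns share a median of 6.106 and a lower quartile of 2.873, and no source used here gives the step that made them alike. KO minus WT from it nearly repeated the alternative of quantile normalization, which gives all arrays the same distribution of signals. The values were 3.817 and 3.817 for Ckm, and -1.328 and -1.328 for Gatm, so these alternatives are not separate checks.

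Control and outlier spots were left out, log2 signals were scaled to each array's 75th percentile, and probes well above background on at least 2 arrays were kept. A gene was represented by its brightest probe, named through its RefSeq accession in the GRCm38.p6 table, since the files pair no symbols with probes: 27234 of 39429 probes were named. The fit (lmFit and eBayes of limma 3.58.1, R 4.3.3, two-sided) ran over all 22924 features with Benjamini-Hochberg adjustment and a threshold of 0.05. The code was also run on simulated data with normal noise. Recovery of changes was required there only at a spread smaller than that of these arrays. That run therefore does not show how well the fit finds changes in these data. Promoter windows were matched by symbol, and none of their coordinates comes from the arrays' own files, whose grid names another build.

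No measured value enters the rule for the 7 genes, but they, the other lists and the alternatives were chosen with earlier results of these data known. Genes named beyond the 7 are S1pr1, up to 4 of smallest p in each list, and the 5 of most like pattern. Precision is limited by the number of arrays. Alternatives were other scalings, background corrections, filters, probes and variance options, the deposited values, and each array left out.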

Additional observations from a re-analysis of the deposited data

How the results depend on the processing

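The count of genes past the threshold was 0 under every alternative run, at an adjusted p under 0.10 too, while genes with an unadjusted p under 0.05 numbered 632 in all and between 166 (without KO replicate 4) and 4250 (without WT replicate 3) with 1 array left out. Leaving out 1 array moved KO minus WT between 0.55 and 7.22 for Ckm, 0.29 and 5.53 for Ckmt2, -0.87 and -0.35 for Ckb, 0.05 and 0.51 for Ckmt1, 0.13 and 1.36 for Slc6a8, -1.90 and -0.69 for Gatm, and -0.77 and 0.11 for Gamt, whose sign turned without KO replicate 4; the lone array was then taken to vary like the other genotype. In the arrays numbered 3 alone, a comparison added after seeing the data, the sign also turned for Ckm (-0.011), Ckmt2 (-0.14), Ckmt1 (-0.16), Slc6a8 (-0.052) and Gamt (0.38). Scaling to the cardiomyocyte markers moved the median of all features to -1.98 by construction and turned Ckmt1 (-1.77), Slc6a8 (-1.30), Ak1 (-0.90), Ak3 (-1.39), Slc25a4 (-0.75), Vdac1 (-0.97), Atp5g1 (-0.46), Atp5d (-0.76), Slc22a5 (-1.17) and Tnnt2 (-0.53). The share of features with the higher mean in KO was 54.8%, but 1.7% with that scaling, 44.4% when dim signals were raised to 1 floor and 43.3% when no probe was left out for dimness. Under the other scalings, filters and background corrections the 7 genes kept their sign; normexp on the mean signal was not run, since the files used hold only medians, and normexp on median signals took its place after the data were seen. No paired analysis was possible because the genotypes share only the replicate number 3. Signal over background limits dim genes most on WT replicate 1, where Ckm was measured near the lowest usable signal.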
